A study of Mus musculus with 12 samples.

Results

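The gene set described here consists of 8 mouse genes of cell cycle control. It holds Trp53, its feedback and target genes Mdm2 and Ccng1, and the cyclin-dependent kinase (CDK) inhibitor genes Cdkn1a, Cdkn1b and Cdkn2c. The pocket protein genes Rb1 and Rbl1 complete it. All 8 were taken by gene symbol from a table of 12208 genes, with earlier results of these data known. Each was present and passed the filter on low counts. The cells were 393P, a mouse lung adenocarcinoma line, epithelial and non-metastatic by its label. It was studied without treatment as 4 derived lines, which carry a GFP vector (vector, the control), wild-type Zeb1 (WT), a deficient form (Zeb1_deficient) or a mimetic form (Zeb1 mimetic). Because the study concerns Zeb1 acetylation, the last pair are taken here to be acetylation mutants, called the mutants below, although the labels do not spell this out. The replicate labels give 3 biological replicates of every line, which is the n used, but the design text counts 2, and the difference is unresolved. Each form was represented by a single line, so the Zeb1 form and other differences between lines cannot be told apart, and p-values measure only the spread between libraries. As background that the labels do not give, 393P came from a tumour of a mouse carrying mutant p53, and the counts do not distinguish p53 alleles.

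The p53 protein is a transcription factor that is held at low level by Mdm2, a ubiquitin ligase whose gene p53 itself activates. It also activates Cdkn1a, which encodes the CDK inhibitor p21, and Ccng1, which encodes cyclin G1. The inhibitors p21, p27 (Cdkn1b) and p18 (Cdkn2c) hold back cyclin-CDK complexes, which otherwise phosphorylate the pocket proteins Rb (Rb1) and p107 (Rbl1) and release E2F transcription factors that drive genes of DNA replication. Much of the control of p53 and p27 acts on protein stability, which tag counts do not show.

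Library totals were 33301106 to 39029599 counts for vector, 28402017 to 35773638 for WT, 31010854 to 32950740 for deficient and 24356697 to 27457818 for mimetic. Levels are given as CPM, counts scaled to a common library size after TMM scaling (trimmed mean of M-values), from 3' tags that stand for transcripts and not for transcript length, as mean ± SD with n = 3. Zeb1 RNA itself had a mean of 31.3 ± 2.79 CPM for vector, 244 ± 6.87 for WT, 484 ± 13.1 for deficient and 228 ± 12.2 for mimetic. This separates the Zeb1 lines from vector but checks no mutation. The deficient line held 1.98-fold the Zeb1 RNA of WT and 2.12-fold that of mimetic. In comparisons of deficient with these lines, Zeb1 level and Zeb1 form cannot be told apart. Of 10 epithelial markers, 8 were in the table, and their summed level was 9060 to 10500 CPM in the vector libraries, 4180 to 4340 in WT, 7740 to 7860 in deficient and 5590 to 5750 in mimetic. Krt8 and Krt18 were the largest in this sum, and with Cdh1, Krt7 and Krt19 they were lower in every Zeb1 line. Not all markers followed. In the order vector, WT, deficient and mimetic, Cldn3 had means of 16.8, 12.3, 44.1 and 26.3 CPM. Crb3 had 2.77, 0.286, 5 and 1.89, and Cldn7 0.359, 0.164, 0.374 and 0.389. Of 6 leukocyte, 4 endothelial and 5 fibroblast markers, 1, 2 and 2 were in the table, with sums of 2.12 to 8.41, 0.291 to 7.14 and 0.793 to 2.65 CPM across libraries. These low sums differed by line. The endothelial sum was 0.291 to 1.01 in vector, 0.737 to 1.15 in WT, 5.37 to 7.14 in deficient and 2.61 to 3.11 in mimetic. Kdr had most of it in deficient, with a mean of 5.91 CPM. The leukocyte sum was 6.05 to 8.41, 2.12 to 3.03, 4.58 to 6.37 and 3.75 to 4.07 in the same order. The 5 markers of differentiated lung epithelium, Nkx2-1 among them, were not in the table and are not analysed here. The mitochondrially encoded share of counts was 0.814% to 0.998% in vector, 0.396% to 0.426% in WT, 0.698% to 0.722% in deficient and 0.482% to 0.504% in mimetic. Its part in the results below was not tested.

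Pattern matches to known binding motifs lie near the start sites of the p53-linked members and Rbl1. Their promoter windows are shown so that the measured levels can be read beside the sequence. Windows from RefSeq (GRCm38.p6) run from 250 bases before to 50 after the annotated start, and 7 of the 8 members had at least 1 window, 9 in all; Rb1 had none. Capitals mark the p53 decamer, the repeat unit of the p53 response element, in the first Cdkn1a window and in those of Mdm2 and Ccng1, the E-box in the second Cdkn1a window, and an E2F form in that of Rbl1.
Cdkn1a, upstream start, plus strand, chr17:29090729-29091028: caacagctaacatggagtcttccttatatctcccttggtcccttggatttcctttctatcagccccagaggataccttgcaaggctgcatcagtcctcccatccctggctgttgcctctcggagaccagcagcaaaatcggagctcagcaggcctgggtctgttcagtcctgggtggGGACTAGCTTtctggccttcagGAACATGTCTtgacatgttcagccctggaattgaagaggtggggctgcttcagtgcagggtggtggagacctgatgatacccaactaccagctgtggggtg
Cdkn1a, downstream start, plus strand, chr17:29093519-29093818: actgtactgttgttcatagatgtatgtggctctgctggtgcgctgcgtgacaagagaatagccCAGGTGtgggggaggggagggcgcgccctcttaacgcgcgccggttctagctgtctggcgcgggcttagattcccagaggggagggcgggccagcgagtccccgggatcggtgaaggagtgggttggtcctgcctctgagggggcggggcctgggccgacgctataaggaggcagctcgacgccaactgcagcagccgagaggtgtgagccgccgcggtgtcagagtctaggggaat
Mdm2, minus strand, chr10:117710709-117711008: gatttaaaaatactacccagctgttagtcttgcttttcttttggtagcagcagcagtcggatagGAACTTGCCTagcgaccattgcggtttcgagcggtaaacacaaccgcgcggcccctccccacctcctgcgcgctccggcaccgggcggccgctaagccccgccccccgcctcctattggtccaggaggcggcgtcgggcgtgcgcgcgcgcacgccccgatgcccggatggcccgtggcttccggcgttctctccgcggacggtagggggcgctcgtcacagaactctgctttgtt
Ccng1, minus strand, chr11:40755237-40755536: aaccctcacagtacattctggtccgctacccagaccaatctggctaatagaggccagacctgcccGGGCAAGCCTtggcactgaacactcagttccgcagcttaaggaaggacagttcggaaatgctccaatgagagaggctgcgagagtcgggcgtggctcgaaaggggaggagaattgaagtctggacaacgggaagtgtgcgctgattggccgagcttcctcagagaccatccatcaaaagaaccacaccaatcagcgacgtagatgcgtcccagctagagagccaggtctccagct
Rbl1, minus strand, chr2:157204485-157204784: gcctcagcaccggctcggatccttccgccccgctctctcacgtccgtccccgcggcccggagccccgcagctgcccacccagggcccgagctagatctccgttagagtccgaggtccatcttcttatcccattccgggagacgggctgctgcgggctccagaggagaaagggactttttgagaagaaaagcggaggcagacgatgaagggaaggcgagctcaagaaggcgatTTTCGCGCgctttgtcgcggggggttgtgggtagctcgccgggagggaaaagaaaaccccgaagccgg

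The p53 decamer was found in 4 of the 9 windows, those of Trp53, Mdm2, Ccng1 and the upstream start of Cdkn1a, which held 2 copies, against 8.36% of all 32851 windows of this length and 6.87% of the 11981 windows of genes in the count table. The E-box that ZEB1 binds was searched as CAGGTG or CAGGTA on both strands and was found in 1 member window, the downstream start of Cdkn1a, against 29.5% of all windows and 24.7% of those of counted genes. E2F forms were searched on both strands as TTTCCCGC, TTTCGCGC, TTTGCCGC and TTTGGCGC and were found only in the Rbl1 window among the 9, against 2.26% of all windows and 3.91% of those of counted genes. The windows of Cdkn1b and Cdkn2c held none of the 3 motifs. None (0) of the 9 windows held more than 1 of the 3 motifs, so no matches of different motifs overlapped, and a match is a description of the sequence, not evidence of binding in these cells.

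Across the 6 pairs of lines, 3 to 6 of the 8 members were called, and the direction differed from gene to gene. A gene was called at an adjusted p under 0.05 in edgeR's quasi-likelihood test, adjusted over all 12027 tested genes. WT against vector called 6 of 8 members, 4 higher and 2 lower, while 64.6% of all genes were called, 31% higher and 33.6% lower. Deficient against vector called 5, 3 higher and 2 lower, against 58.2% of all genes, 28.4% higher and 29.8% lower. Mimetic against vector also called 5, 3 higher and 2 lower, against 59.5%, 28.6% higher and 30.9% lower. These 3 comparisons share the vector libraries. Mimetic against deficient called 3 members, 2 higher and 1 lower, against 27.4% of all genes, 12.6% higher and 14.9% lower. Mimetic against WT called 5, 1 higher and 4 lower, against 44.9%, 23.1% higher and 21.8% lower, and deficient against WT called 6, 2 higher and 4 lower, against 53.8%, 27.5% higher and 26.3% lower. The median log2 difference over the 8 members lay between -0.21 (mimetic against WT) and 0.13 (deficient against vector). With the sign ignored, the members' median against vector was 0.33 in WT, 0.31 in deficient and 0.26 in mimetic. Over all genes these medians were 0.32, 0.27 and 0.28. In mimetic against deficient, mimetic against WT and deficient against WT, it was 0.11, 0.22 and 0.30 for members. All genes had 0.14, 0.20 and 0.23 there. The most often called members were Cdkn1a, Cdkn1b and Rbl1, each in 5 of 6 pairs, and the least was Rb1, in 1; of all genes, 24.7% were called in at least 5.

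**Figure D1:**
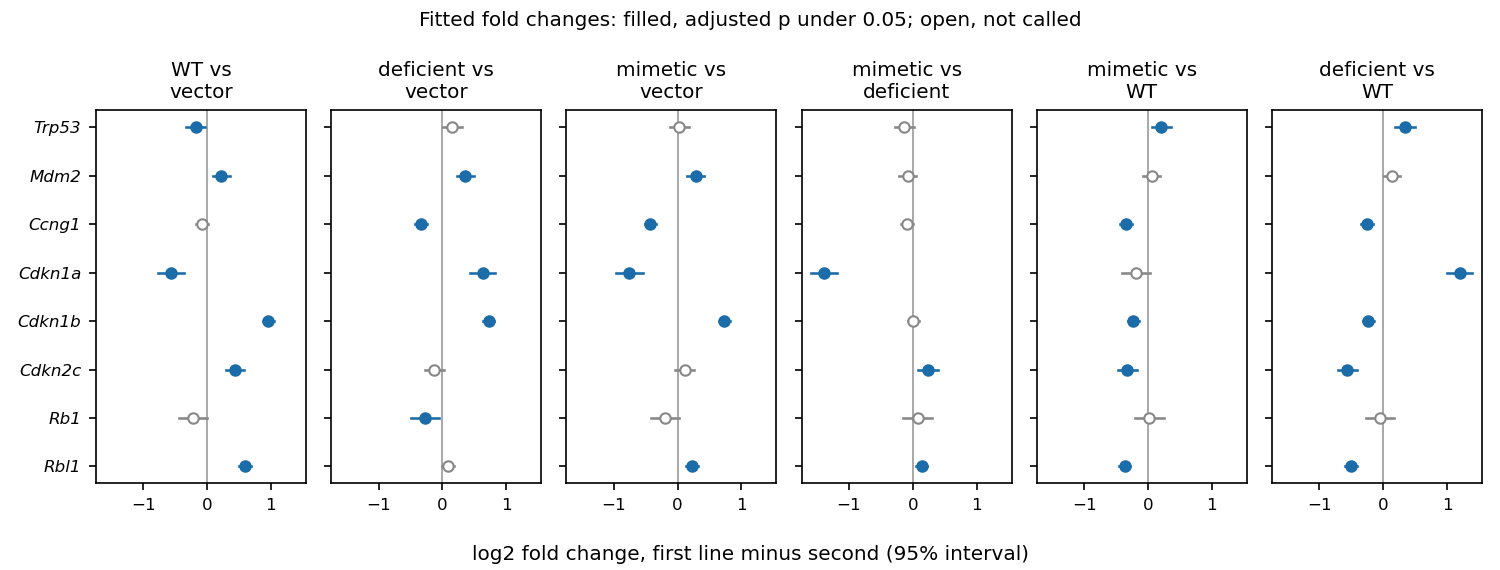
Fitted log2 fold change of each member in the 6 pairs of lines, first line minus second, with its 95% interval; filled points were called at an adjusted p under 0.05 and open points were not. Cdkn1a has the widest spread of the 8, from -1.39 in mimetic against deficient to 1.20 in deficient against WT, while Cdkn1b lies to the right of 0 in all 3 comparisons with vector.

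Trp53 RNA (ENSMUSG00000059552, chromosome 11, 69580359 to 69591873, GRCm38) was lowest in WT and highest in deficient, over a narrow range. The vector libraries held 30.9, 27.5 and 29 CPM, WT 26.8, 25 and 25.4, deficient 31.5, 31.2 and 35, and mimetic 29.1, 31.8 and 28.3. Every WT library lay below every other library, and every deficient library lay above those of vector, while mimetic overlapped both vector and deficient. Trp53 was higher in deficient than in WT, with a log2 difference of 0.34 (SE 0.07, adjusted p = 0.000553) that was called under every alternative. The difference of WT from vector was -0.18 (SE 0.07, adjusted p = 0.0361), and it was not called without vector replicate 1 (adjusted p = 0.158), vector replicate 3 (0.0534), WT replicate 2 (0.122) or WT replicate 3 (0.0943), nor with relative log expression (RLE) factors (0.0501), library size only (0.0564) or DESeq2 (0.0501). Mimetic exceeded WT by 0.21 (SE 0.07, adjusted p = 0.026), a call lost without mimetic replicate 2 (adjusted p = 0.133), WT replicate 2 (0.102) or WT replicate 3 (0.0812). Deficient against vector was 0.16 with a 95% interval of 0.01 to 0.31 (adjusted p = 0.0638), and was called without vector replicate 1 (adjusted p = 0.0402), with library size only (0.0198) and with the stricter filter of 5 CPM (0.0325).

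Mdm2 (ENSMUSG00000020184, chromosome 10, 117688875 to 117710758) rose in all 3 Zeb1 lines relative to vector. In vector, the libraries held 60.5, 64.8 and 60.7 CPM, WT 70.7, 74.9 and 71.5, deficient 78.4, 81.6 and 78.9, and mimetic 73.2, 84.7 and 68.4. All 9 Zeb1 libraries lay above all 3 of vector, and mimetic replicate 2 stood above the rest of its line. The log2 fold changes were 0.22 in WT (SE 0.06, adjusted p = 0.00414), 0.36 in deficient (SE 0.06, adjusted p = 5.41e-05) and 0.28 in mimetic (SE 0.06, adjusted p = 0.00068). Among the Zeb1 lines the differences were smaller: deficient against WT was 0.14 (95% interval 0.01 to 0.27, adjusted p = 0.0711), called with library size only (adjusted p = 0.0325), the stricter filter (0.0348) or a fit of only these lines (0.0259). Mimetic against deficient was -0.08 (95% interval -0.21 to 0.05, adjusted p = 0.395) and became -0.17 without mimetic replicate 2 (adjusted p = 0.0448).

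Within a library, the ratio of Mdm2 to Trp53 counts, which needs no scaling, averaged 2.13 ± 0.202 for vector, 2.82 ± 0.183 for WT, 2.45 ± 0.184 for deficient and 2.53 ± 0.125 for mimetic. The WT and vector libraries did not overlap, at 2.64 to 3 and 1.96 to 2.35, while deficient, at 2.25 to 2.61, overlapped vector. With 3 libraries against 3, an exact permutation test of a ratio cannot go below p = 0.1, so the ratios are given without a test.

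Ccng1 (ENSMUSG00000020326, chromosome 11, 40748552 to 40755311), whose product cyclin G1 takes part in the feedback between p53 and Mdm2, was lower in both mutant lines than in vector and WT. Its mean level was 181 ± 2.5 CPM for vector and 171 ± 2.53 for WT, against 143 ± 6.33 for deficient and 135 ± 5.05 for mimetic. The lowest vector or WT library, at 167.8 CPM, lay above the highest mutant library, at 148.5. Relative to vector it fell by 0.34 on the log2 scale in deficient (SE 0.04, adjusted p = 1.13e-06) and by 0.43 in mimetic (SE 0.04, adjusted p = 4.34e-08), and the mutants were also below WT, by -0.25 (SE 0.04, adjusted p = 4.99e-05) and -0.34 (SE 0.04, adjusted p = 2.27e-06). WT against vector was -0.08 (95% interval -0.17 to 0.01, adjusted p = 0.0949). Mimetic against deficient was -0.09 (adjusted p = 0.144) and reached -0.12 without deficient replicate 3 (adjusted p = 0.0474). Mdm2 and Ccng1, both known p53 targets with a match to the p53 decamer in the windows above, thus moved in opposite directions in the mutants, Mdm2 up and Ccng1 down. These changes were of ordinary size. Against vector, that of Mdm2 was at least as large as in 62.7% of tested genes in deficient and 50.9% in mimetic. For Ccng1 these shares were 59.8% and 66.8%.

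**Figure D2:**
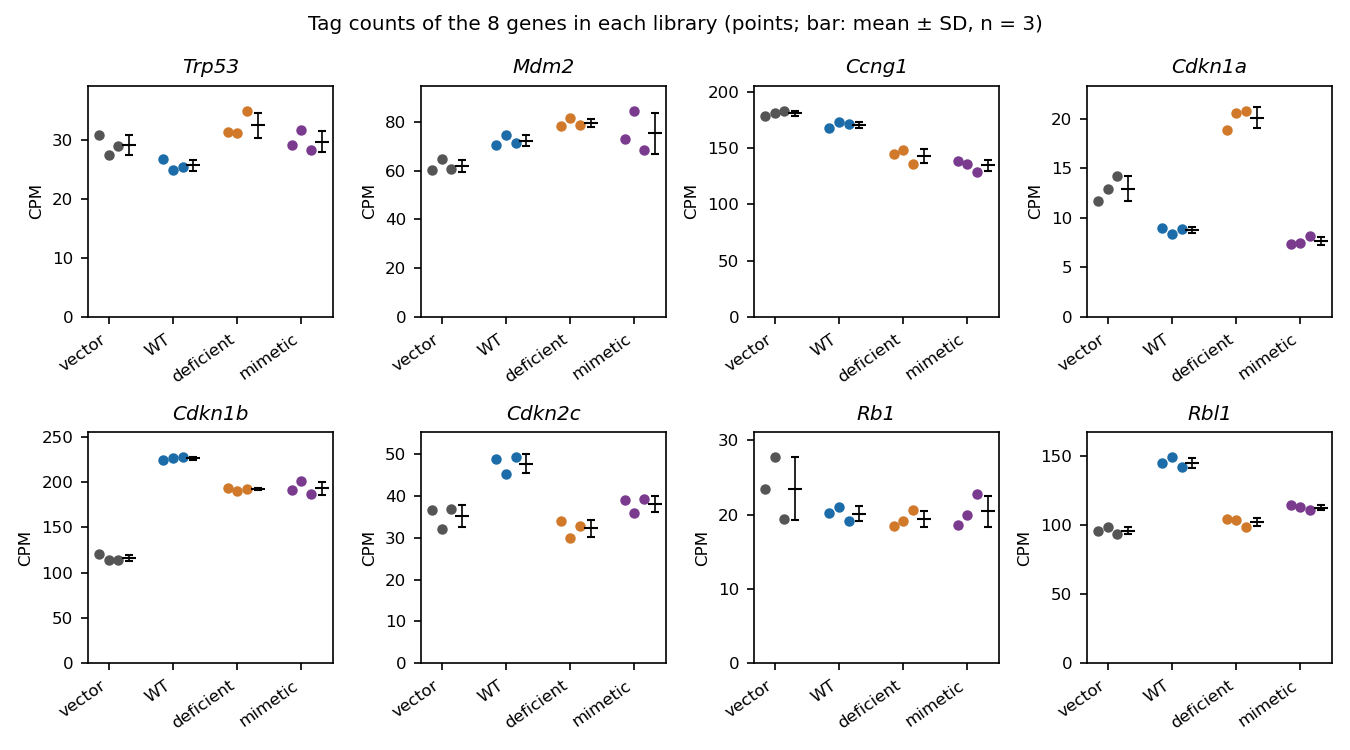
CPM of each member in every library, by line; points are libraries and the bar beside them is the mean ± SD, n = 3, on axes that start at 0. Cdkn1a is high in deficient (18.9 to 20.8 CPM) and low in WT and mimetic (7.38 to 8.98), Cdkn1b is low in vector alone, and Cdkn2c and Rbl1 are highest in WT.

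Cdkn1a (ENSMUSG00000023067, chromosome 17, 29090976 to 29100727), the gene of p21, had the widest range of fold changes among the members. The vector libraries held 11.7, 12.9 and 14.2 CPM, WT 8.98, 8.4 and 8.83, deficient 18.9, 20.6 and 20.8, and mimetic 7.38, 7.47 and 8.11. No library of deficient or vector overlapped another line, and the mimetic libraries lay just under those of WT. Relative to vector, Cdkn1a rose 1.55-fold in deficient (log2 0.63, SE 0.09, adjusted p = 5.84e-06) and fell 1.48-fold in WT (log2 -0.57, SE 0.10, adjusted p = 3.26e-05) and 1.69-fold in mimetic (log2 -0.76, SE 0.10, adjusted p = 1.58e-06). The 2 mutants differed by 2.62-fold (log2 -1.39 for mimetic against deficient, SE 0.10, adjusted p = 1.17e-09), a change at least as large in size as that of 98.6% of tested genes in that comparison. The changes of Cdkn1a against vector ranked lower, at 72.5% in WT, 81.8% in deficient and 84.4% in mimetic. Deficient exceeded WT 2.3-fold (log2 1.20, SE 0.10, adjusted p = 1.64e-09). Mimetic and WT were not separated, at -0.19 with a 95% interval of -0.41 to 0.03 (adjusted p = 0.147). All 6 of these results kept their direction and their side of the threshold under each of the 14 alternatives tried. Counts were modest, 185 to 662 per library.

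Cdkn1b (ENSMUSG00000003031, chromosome 6, 134920401 to 134925513), the gene of p27, behaved differently from its relative Cdkn1a: it rose in every Zeb1 line. In vector, the libraries held 120.3, 114.4 and 113.4 CPM, WT 224.1, 226.4 and 227.2, deficient 192.8, 190.4 and 192, and mimetic 190.6, 201.1 and 186.6. All 9 Zeb1 libraries lay above every vector library, WT lay above both mutants, and the mutants overlapped. The rise over vector was 1.95-fold in WT (log2 0.96, SE 0.04, adjusted p = 3.69e-14), 1.65-fold in deficient (log2 0.72, SE 0.04, adjusted p = 6.94e-12) and 1.66-fold in mimetic (log2 0.73, SE 0.04, adjusted p = 4.75e-12). Both mutants stayed below WT, with log2 differences of -0.24 for deficient (SE 0.04, adjusted p = 5.63e-05) and -0.23 for mimetic (SE 0.04, adjusted p = 0.000119). Mimetic against deficient was 0.01, with a 95% interval of -0.08 to 0.09 (adjusted p = 0.912). The deficient line thus had both inhibitors above vector, while WT and mimetic had Cdkn1b above and Cdkn1a below it.

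The count ratio of Cdkn1a to Cdkn1b within each library summarises this without any scaling. It was 0.112 ± 0.0143 in vector and 0.105 ± 0.00589 in deficient, where the libraries overlapped, at 0.097 to 0.125 and 0.0979 to 0.108. It was 0.0387 ± 0.00149 in WT and 0.0398 ± 0.00331 in mimetic, which also overlapped, at 0.0371 to 0.0401 and 0.0371 to 0.0435. The ratios of vector and deficient were all above those of WT and mimetic.

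**Figure D3:**
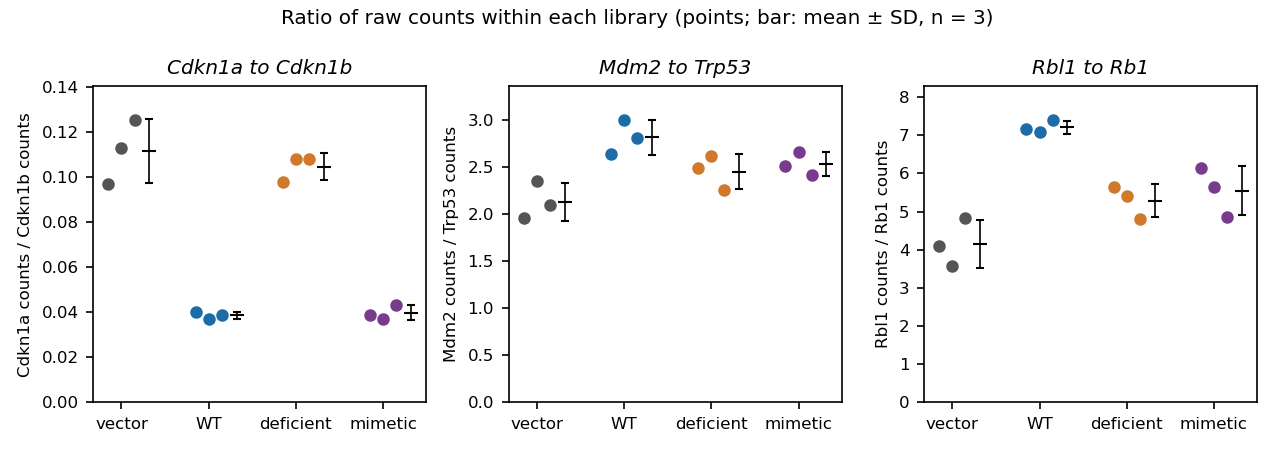
Ratio of raw counts of 2 members within each library, by line; points are libraries and the bar is the mean ± SD, n = 3, on axes that start at 0. The Cdkn1a to Cdkn1b ratio puts vector and deficient (0.097 to 0.125) apart from WT and mimetic (0.0371 to 0.0435), whereas the Rbl1 to Rb1 ratio is highest in WT (7.08 to 7.4).

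Cdkn2c (ENSMUSG00000028551, chromosome 4, 109660876 to 109667189) encodes p18, an inhibitor of the INK4 family that binds Cdk4 and Cdk6. The vector libraries held 36.7, 32.1 and 36.9 CPM, WT 48.8, 45.2 and 49.2, deficient 34, 29.9 and 32.7, and mimetic 39, 35.8 and 39.2. WT lay above all other libraries, while vector overlapped both mutants. Cdkn2c rose in WT relative to vector by 0.44 (SE 0.07, adjusted p = 1.63e-05), and was below WT in mimetic by -0.33 (SE 0.07, adjusted p = 0.000796) and in deficient by -0.57 (SE 0.07, adjusted p = 1.15e-06). Mimetic was above deficient by 0.24 (SE 0.07, adjusted p = 0.0174), a call lost without deficient replicate 2 (adjusted p = 0.0949), mimetic replicate 1 (0.0621) or mimetic replicate 3 (0.0658). Relative to vector, deficient was -0.13 (95% interval -0.28 to 0.02, adjusted p = 0.126), called without vector replicate 2 (adjusted p = 0.0314), and mimetic was 0.11 (95% interval -0.04 to 0.26, adjusted p = 0.196), called with library size only (0.032).

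Rbl1 (ENSMUSG00000027641, chromosome 2, 157145893 to 157204534), the gene of p107 and itself a known E2F target, was highest in WT. In vector, the libraries held 95.9, 99 and 93.4 CPM, WT 144.6, 149.2 and 141.7, deficient 104.5, 103.5 and 98.9, and mimetic 114.5, 112.8 and 110.6. WT lay above all other libraries, mimetic lay between WT and deficient without overlap, and deficient overlapped vector. Relative to vector Rbl1 rose 1.51-fold in WT (log2 0.60, SE 0.04, adjusted p = 1.71e-10) and 1.17-fold in mimetic (log2 0.23, SE 0.04, adjusted p = 0.000121). Both mutants were below WT, by -0.51 for deficient (SE 0.04, adjusted p = 4.48e-09) and -0.37 for mimetic (SE 0.04, adjusted p = 8.18e-07). Deficient against vector was 0.09 (adjusted p = 0.0783), called with library size only (adjusted p = 0.0112), the stricter filter (0.0233) or without deficient replicate 3 (0.0391). Mimetic exceeded deficient by 0.14 (SE 0.04, adjusted p = 0.0215), a call lost without deficient replicate 3 (adjusted p = 0.0737), mimetic replicate 1 (0.0764) or mimetic replicate 2 (0.0569).

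Rb1 (ENSMUSG00000022105, chromosome 14, 73183673 to 73325822), the founding pocket protein, varied most among vector libraries and gave the least separation. The vector libraries held 23.5, 27.7 and 19.4 CPM, WT 20.2, 21.1 and 19.2, deficient 18.5, 19.1 and 20.6, and mimetic 18.7, 20 and 22.7, so all lines overlapped. It was called only in deficient against vector, at -0.27 (SE 0.11, adjusted p = 0.0308), and that call was lost without any of vector replicate 1 (adjusted p = 0.065), vector replicate 2 (0.249), deficient replicate 1 (0.0938) or deficient replicate 2 (0.0763), with library size only (0.0692) and in a fit of only these lines (0.0502). WT against vector was -0.22 (adjusted p = 0.0743) and mimetic against vector -0.20 (adjusted p = 0.118); without vector replicate 3 both were called, at -0.34 (adjusted p = 0.00327) and -0.32 (adjusted p = 0.00623), and mimetic against vector was also called without mimetic replicate 3 (adjusted p = 0.0494). In the annotation 488 exonic bases of Rb1 are shared with Rcbtb2, a gene on the other strand that overlaps the 3' end of Rb1, and 408 with Lpar6, which lies within it. The counting strand is not stated, so tags of these genes cannot be told apart with certainty; in the order vector, WT, deficient and mimetic, Rcbtb2 had means of 10.2, 12.6, 17 and 19.5 CPM, and Lpar6 of 6.75, 4, 6.01 and 5.37.

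The ratio of Rbl1 to Rb1 counts within a library averaged 4.16 ± 0.631 for vector, 7.21 ± 0.168 for WT, 5.28 ± 0.432 for deficient and 5.55 ± 0.64 for mimetic. All 3 WT libraries lay above the rest, and deficient, at 4.8 to 5.63, overlapped both vector, at 3.57 to 4.82, and mimetic, at 4.86 to 6.13. Rb1 entered this ratio with the uncertainty of its overlapping neighbours.

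The 20 tested genes nearest to each member on its chromosome were set beside it. Around Cdkn1a they spanned 1.38 Mb and had a median log2 fold change of 0.28 in WT, 0.19 in deficient and 0.12 in mimetic against vector, and none (0) of them was as low as Cdkn1a in WT or mimetic. In mimetic against deficient their median was -0.01, beside -1.39 for Cdkn1a. Around Cdkn1b the medians were 0.35, 0.32 and 0.29 against vector, of the same sign as the gene's own rise, and 6, 7 and 5 of the 20 were at least as high. Around Rb1 the median was -0.68 in WT, -0.14 in deficient and -0.31 in mimetic, so that in WT 17 of 20 neighbours were at least as low as Rb1. In the same order, the medians were -0.06, -0.14 and -0.17 around Ccng1, of the same sign as the falls of Ccng1 in the mutants, and 6 and 2 of its 20 neighbours were at least as low there. Around Cdkn2c they were 0.22, 0.17 and 0.14, with 3 of 20 at least as high as Cdkn2c in WT, and around Rbl1 they were 0.12, 0.25 and 0.11, with 4 of 20 at least as high as Rbl1 in WT. Around Mdm2 they were 0.08, 0.00021 and -0.02, with 6, 4 and 5 of 20 at least as high as Mdm2, and around Trp53 they were -0.12, -0.14 and -0.11, with 10 of 20 at least as low as Trp53 in WT. Medians over the other tested genes of the whole chromosome, in the same order, were 0.15, 0.09 and 0.08 for Cdkn1a. They were 0.19, 0.13 and 0.0052 for Cdkn1b, -0.14, 0.18 and 0.14 for Rb1, and -0.12, -0.15 and -0.17 for Ccng1. For Cdkn2c they were 0.16, 0.13 and 0.11, for Rbl1 -0.01, 0.02 and 0.04, and for Mdm2 0.07, 0.05 and 0.05. Trp53 shares chromosome 11 with Ccng1. What these local and chromosome-wide shifts contribute to the members was not tested.

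The genes whose levels tracked each member most closely were sought among 8852 tested genes of at least 10 CPM, by Pearson correlation of log2 CPM over the 12 libraries, which share 4 lines and so hold few independent points. Closest to Cdkn1a were Cttnbp2nl (0.988) and Tnnt2 (0.977), and closest to Cdkn1b were Ptprm (0.994) and Ddah1 (0.991). For Rbl1 they were Rtkn2 (0.995) and Fam111a (0.989), and for Cdkn2c Rgmb (0.964) and Eef1d (0.961). Ccng1 was matched by Rabgap1 (0.983) and Eps8 (0.983), Rb1 by Huwe1 (0.951) and Cbl (0.946), Trp53 by 2410002F23Rik (0.935) and Phlda1 (0.92), and Mdm2 by Wdr43 (0.934) and Ubxn8 (0.92). Among the members themselves, Cdkn2c and Rbl1 were the pair most alike (0.854), and Trp53 and Cdkn2c the most opposed (-0.756). Trp53 RNA correlated with that of the known p53 target genes at 0.595 for Cdkn1a, 0.335 for Mdm2 and -0.538 for Ccng1. The activity of p53 in these cells was not measured.

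The wider list of p53 target genes did not move as 1 group. Of 36 genes, 33 were tested, the members Cdkn1a, Mdm2 and Ccng1 included. In WT against vector 8 rose and 12 fell (median -0.08, against -0.01 over all genes, of which 31% rose and 33.6% fell). In deficient 11 rose and 10 fell (median 0.03 against 0.0041), beside 28.4% and 29.8% of all genes, and in mimetic 9 rose and 15 fell (median -0.11 against -0.0044), beside 28.6% and 30.9%. Perp, a desmosomal and apoptosis effector, stood at 126 ± 5.68 CPM in the vector line and fell in every Zeb1 line, to 35.3 ± 2.61 with WT, 97.3 ± 2.19 with deficient and 64.7 ± 3.75 with mimetic. The tetraspanin Cd82 and the epoxide hydrolase Ephx1 likewise fell in all 3 lines, by 0.89, 0.38 and 0.80 and by 1.01, 0.71 and 0.24 on the log2 scale. Gadd45a, a growth arrest gene, rose instead, from 24.1 ± 1.31 CPM to 33.9 ± 0.528 in WT, 55.6 ± 2.62 in deficient and 33.6 ± 4.11 in mimetic.

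Between the mutants, 12 of the 33 p53 targets were lower in mimetic than in deficient and 3 were higher (median -0.13, against 0.0042 over all genes, of which 14.9% were lower and 12.6% higher); without deficient replicate 3, 13 were lower and 5 higher. Among the called ones, Cdkn1a had the largest difference, followed by Gadd45a at -0.72. Against WT, deficient had 15 of 33 higher and 8 lower (median 0.12), beside 27.5% and 26.3% of all genes. Chosen after the values were seen, Pmaip1, which encodes the apoptosis inducer Noxa, was near 0 in vector and WT, at 0.357 ± 0.205 and 0.298 ± 0.183 CPM, and reached 3.74 ± 0.435 in deficient and 2.28 ± 0.319 in mimetic, a rise of 3.40 in deficient (SE 0.34, adjusted p = 4e-08) and 2.69 in mimetic (SE 0.36, adjusted p = 1.79e-06) on the log2 scale.

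Of the regulators and relatives of p53, 17 of 20 were tested, and 6 rose and 8 fell in WT, 3 and 6 in deficient, and 5 and 7 in mimetic against vector. Over all genes, the shares that rose and fell were 31% and 33.6% in WT, 28.4% and 29.8% in deficient, and 28.6% and 30.9% in mimetic, and the list is not read as differing from them. These counts moved with single libraries: 5 fell in WT without WT replicate 3, 5 rose in deficient without deficient replicate 3, and 3 rose in mimetic without vector replicate 1, mimetic replicate 1 or mimetic replicate 3. The deubiquitinase Usp7, which acts on Mdm2 and p53, fell by 0.32, 0.40 and 0.38, and the damage response adaptor Trp53bp1 fell by 0.64, 0.36 and 0.35. Rchy1, another ubiquitin ligase for p53, rose by 0.23, 0.68 and 0.52. Ppp1r13b, a p53 cofactor, fell by 1.15 in WT and 0.67 in mimetic, and was -0.11 in deficient (adjusted p = 0.337).

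Among the other listed CDK inhibitors, a list of only 5 genes, most calls against vector were upward. All 5 listed were tested, and 4 rose in WT, 4 in deficient and 3 in mimetic, with medians of 0.64, 0.67 and 0.39, against backgrounds of 31%, 28.4% and 28.6% of all genes. In the same order 0, 1 and 1 fell, beside 33.6%, 29.8% and 30.9% of all genes. Cdkn2b (p15) rose from 115 ± 8.53 CPM in vector to 142 ± 5.65, 183 ± 8.9 and 151 ± 2.05 in WT, deficient and mimetic. Cdkn2d (p19) went from 32 ± 1.46 CPM in vector to 49.7 ± 2.24 with WT, 37.8 ± 2.86 with deficient and 35.4 ± 0.819 with mimetic, and the mimetic difference was not called (adjusted p = 0.0735). Cdkn3, a CDK-binding phosphatase, rose by 0.64, 0.71 and 0.65 on the log2 scale. Cdkn1c, the gene of p57, named after its values were seen, was called higher in all 3 lines but stood under 1 CPM in each. The 3 that rose in mimetic were thus Cdkn2b, the phosphatase gene Cdkn3 and the barely expressed Cdkn1c. Cdkn2a, which encodes p16 and Arf, an inhibitor of Mdm2, was present at 240 ± 26.1 CPM in vector and fell to 213 ± 3.93 in deficient and 197 ± 7.37 in mimetic, while WT was 231 ± 8.81 (adjusted p = 0.414). The deficient call on Cdkn2a was lost without vector replicate 3 and with library size only, where none (0) of the 5 fell.

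Of 20 cyclins, CDKs and their regulators, 8 were higher and 8 lower in WT than in vector, where 31% and 33.6% of all genes were. The counts were 6 and 7 in deficient, beside 28.4% and 29.8%, and 7 and 7 in mimetic, beside 28.6% and 30.9%, the last becoming 9 and 4 with library size only. Ccne2, a cyclin E gene, rose from 31.5 ± 3.72 CPM to 77.9 ± 4.28, 58.2 ± 5.46 and 76 ± 4.33 in WT, deficient and mimetic. Ccnd2, a D-type cyclin, fell by 0.84, 1.06 and 1.03, and the phosphatase Cdc25b by 0.72, 0.70 and 0.66. Cdk4, the kinase that p18 binds, rose by 0.47 in WT, 0.11 in deficient and 0.26 in mimetic.

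Among partners of the pocket proteins, 7 of 18 rose and 4 fell in WT, beside 31% and 33.6% of all genes, and 6 rose and 3 fell in mimetic, beside 28.6% and 30.9%. In deficient 4 rose and 5 fell, beside 28.4% and 29.8%, and without deficient replicate 2 only 2 rose. Rbl2, the third pocket protein (p130), was 31.1 ± 3.33 CPM in vector and 30.3 ± 0.0556 in WT, and fell to 18.7 ± 0.944 in deficient and 23.2 ± 1.83 in mimetic. The repressor E2f8 fell by 0.91, 1.09 and 1.06, whereas the E2F partner Tfdp1 rose by 0.50, 0.12 and 0.30, and Rbbp4, a histone-binding protein of the DREAM complex, rose by 0.37 in WT and 0.23 in mimetic and was 0.03 in deficient (adjusted p = 0.624). Of 12 tested genes that act on p27 and p21 turnover or on FOXO control, 6 rose and 3 fell in WT, 1 and 4 in deficient, and 3 and 4 in mimetic, beside the same shares of all genes as above (31% and 33.6%, 28.4% and 29.8%, and 28.6% and 30.9%). For deficient the count was 3 and 3 with library size only, 2 and 4 with the stricter filter and 1 and 2 without vector replicate 3. Cul1, the scaffold of the ligase that degrades p27, rose by 0.45, 0.26 and 0.14. Fbxw7, a ligase subunit for cyclin E, fell by 0.48 in WT and 0.15 in mimetic. Ddb1 and Cul4a, of a ligase that degrades p21, were both lower in mimetic than in WT, by -0.37 and -0.36.

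E2F target genes were higher in WT and mimetic than in deficient, as Rbl1, which is not on that list, also was. Of 20 tested, 15 rose and 2 fell in WT against vector (median 0.28), where 31% of all genes rose and 33.6% fell. In mimetic 12 rose and 3 fell (median 0.34), beside 28.6% and 30.9% of all genes, and in deficient 9 rose and 9 fell (median 0.01), beside 28.4% and 29.8%. The 3 that fell in mimetic became 1 with library size only, in a fit of only these lines, without vector replicate 3 or without mimetic replicate 1. With no filter they became 4, and leaving out each library in turn gave 1 to 4. Deficient had 18 lower and 1 higher than WT (median -0.34, against 0.006 over all genes, of which 26.3% were lower), and mimetic had 16 higher and none (0) lower than deficient (median 0.25, against 0.0042, with 12.6% of genes higher). Mcm2, a subunit of the replicative helicase, had 223 ± 8.7 CPM in vector and rose to 380 ± 4.28 with WT, 275 ± 5.9 with deficient and 293 ± 5.89 with mimetic. Mcm5 rose by 0.61 in WT, 0.18 in deficient and 0.45 in mimetic, and Rrm2, the small subunit of ribonucleotide reductase, by 0.65, 0.39 and 0.68. The deficient line, which had the highest Cdkn1a, thus had lower E2F target RNA than WT and mimetic. Against vector, which it also exceeded in Cdkn1a, its E2F targets were evenly split, 9 higher and 9 lower. How far these 2 measurements are linked was not tested.

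**Figure D4:**
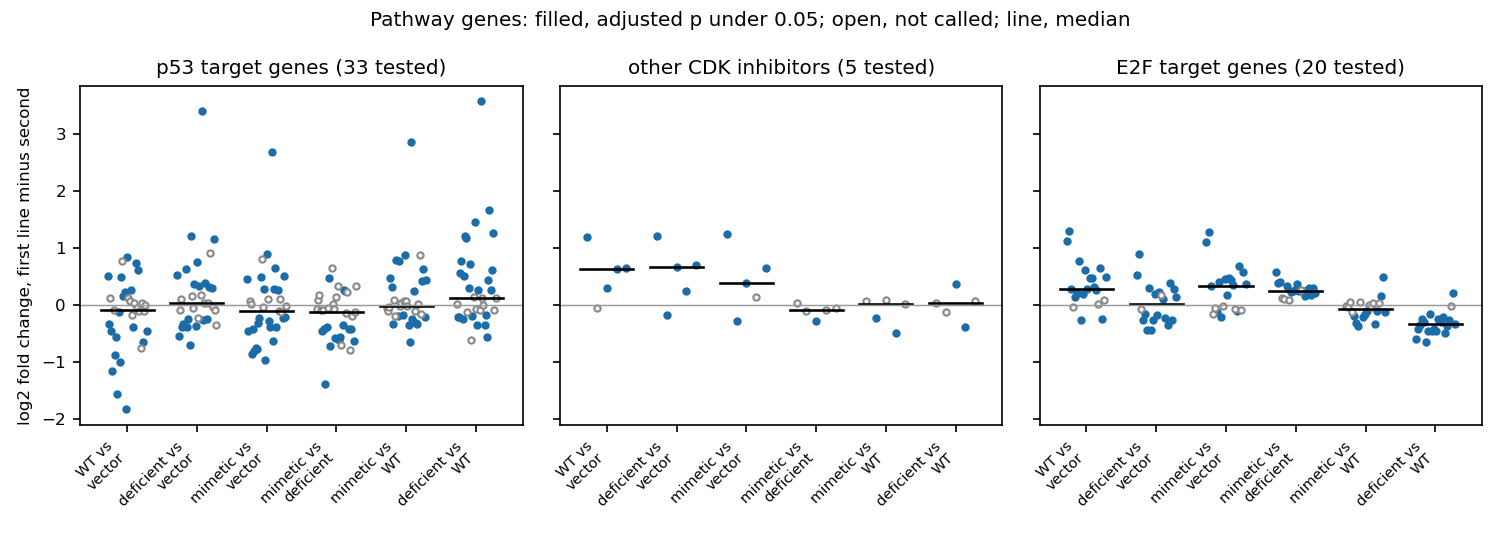
Log2 fold change, first line minus second, of each tested gene of 3 lists in the 6 pairs of lines; filled points were called, open points were not, and the horizontal line is the list's median. The p53 targets lie on both sides of 0 in every pair, the other CDK inhibitors lie mostly above 0 against vector (medians 0.39 to 0.67), and 18 of the 20 E2F targets were called lower in deficient than in WT (median -0.34).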

How the data were processed

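RNA of 4 lines of 393P cells, 3 libraries each, was sequenced as QuantSeq 3' tags, per the labels' protocols. The authors deposited raw counts per gene, not normalised, in 1 table; the submitters' processing notes name STAR and the mm10 genome. No source used here names the tool that counted reads, its use of strand or its gene models. The smallest count in the table is 1, so genes with 0 counts in any library are not analysed here. Libraries were matched to lines by their titles.

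Counts were tested with edgeR 4.0.16 in R 4.3.3: filterByExpr kept 12027 genes and removed 181, TMM factors were applied, and the quasi-likelihood fit took all 12 libraries with line as the factor. P-values are two-sided and adjusted by the Benjamini-Hochberg method over all tested genes. The standard error is the log2 fold change divided by the square root of F, and 95% intervals use the test's degrees of freedom. Log2 CPM used a prior count of 2. Positions are from GENCODE M21 (GRCm38), which held 12195 of 12208 IDs, and promoter windows from RefSeq.

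The members, lists and tests were chosen with earlier results of these data known. All members are named, with up to 4 genes per list by smallest adjusted p in any comparison and the 2 genes most like each member; Pmaip1, Cdkn1c and the genes overlapping Rb1 fall outside this rule. Alternatives were DESeq2 1.42.0, limma-voom (limma 3.58.1), RLE factors, library size only, no filter, at least 5 CPM in 3 libraries, only the compared lines, a replicate block, and each library left out. The procedure was also run on simulated counts with 200 genes changed in 1 line. For WT against vector (11960 genes), it called 84.8% of genes changed 1.5-fold, 96.6% of those of at least 5 CPM, and 0.094% of unchanged genes. For deficient against vector (11955 genes) these were 81%, 96.2% and 0.068%. In the data 7769 and 7001 genes were called in these comparisons, far more than were changed in the simulation. The simulated rates therefore need not hold for the data. Replicates differed by more than counting noise (mean chi-square per gene 2.96 to 23.6).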

Additional observations from a re-analysis of the deposited data

How the results depend on the processing

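Of 30 calls over the 48 pairs of a member and a comparison, 25 kept their direction and their side of the threshold under all 14 alternatives, and of 18 pairs not called, 4 did. Beyond the construction of each alternative, the cause of the exceptions was not tested. Members called higher in deficient against vector numbered 5 with library size only and with at least 5 CPM in 3 libraries, instead of 3. Members called lower in deficient against vector numbered 1 with library size only and with only the 2 lines compared, instead of 2. Members called lower in WT against vector numbered 1 with DESeq2, RLE factors and library size only, instead of 2. Leaving out each library in turn gave 1 to 2 members lower in deficient against vector, in WT against vector and in mimetic against deficient, 0 to 2 higher in mimetic against deficient, and 0 to 1 higher in mimetic against WT.

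The log2 difference changed sign only among pairs that were not called. In mimetic against deficient, leaving out each library gave Cdkn1b values from -0.0234 to 0.0315 and Rb1 values from -0.0043 to 0.14. In mimetic against WT, Mdm2 ran from -0.0324 to 0.12 and Rb1 from -0.0617 to 0.0837, and in mimetic against vector Trp53 ran from -0.0222 to 0.0731.

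The titles number libraries 1 to 3 in each line, and no clear pairing by number was seen. Deviations of same-numbered libraries correlated at -0.0847 to 0.132, over 0.1 in 1 of 18 pairs, and 5 of 12 libraries correlated best with their own number. With 3 libraries per line, these correlations cannot exclude a shared batch. A replicate block moved the genes called from 7769 to 7852 in WT against vector and from 6470 to 6573 in deficient against WT, and among the members it added Mdm2 in deficient against WT (adjusted p = 0.0327).

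Scaling by library size only moved the called genes from 3438 higher and 3720 lower to 4334 and 3004 in mimetic against vector, from 1510 and 1789 to 1982 and 1509 in mimetic against deficient, and from 2780 and 2618 to 3506 and 1980 in mimetic against WT, with shifts of the median of all genes under 0.1.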
